A study of Mus musculus with 16 samples.

Results

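Cholesterol synthesis and lipid handling genes are a set of 37 genes, listed by name and role, with no threshold on a measured value but with earlier results of these data known, out of 31093 genes named on the array. By role they comprise 14 enzymes of sterol synthesis, 4 regulators of sterol balance and 5 genes of cholesterol efflux and lipoproteins. The others are 3 genes of lipid uptake and hydrolysis, 4 of lipid storage and fatty acid binding, 4 of fatty acid synthesis and oxidation, and 3 genes known from lipid-associated macrophages. All 37 were on the array and 36 were tested. The exception was Cyp51, which encodes lanosterol demethylase and whose single probe was not well above background on enough arrays.

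The genes were followed in macrophages sorted by flow cytometry, straight into lysis buffer, from pancreatic tumors and from normal pancreas of female C57/B6 mice aged 8 to 10 weeks. The groups were tumor YFP+ (5 arrays), tumor YFP- (5 arrays), normal YFP+ (3 arrays) and normal YFP- (3 arrays), and if the titles' numbers are those of mice, as was assumed, every animal contributed 1 YFP+ and 1 YFP- sample. Tumor samples came from 5 mice and normal samples from 3. The series design names wild-type, KPC and FLT3-CRE/LSL-YFP mice, whereas the treatment protocol speaks of tumor implantation and the genotype is labelled as not provided, and whether the tumors were implanted or arose in place is not settled by the labels. Flt3 is expressed in early blood progenitors, and a Cre under its control switches the YFP reporter on permanently, so that YFP+ cells descend from Flt3-expressing cells. YFP- cells lack this mark, which does not by itself fix their origin.

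Cells make cholesterol from acetyl-CoA through the mevalonate pathway. When sterols in the endoplasmic reticulum run low, the transcription factor SREBP2, the product of Srebf2, is released to the nucleus and raises most enzymes of the pathway together, and the product of Insig1 holds it back when sterols are plentiful. Macrophages also take up lipoproteins and fatty acids, store the surplus as esters in droplets, and return cholesterol to lipoproteins through the transporters ABCA1 and ABCG1 under control of LXRα, the product of Nr1h3.

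The promoters of 4 sterol enzymes whose RNA is described next are shown, each as the 250 bases before a RefSeq transcript start (GRCm38.p6, 5′ to 3′ on the gene's strand). Capitals mark matches on either strand to TCACNCCAC (the core of a sterol regulatory element), CCAAT (the box bound by NF-Y), GGGCGG (the box bound by Sp1) and CACGTG (an E-box). NF-Y and Sp1 are known to act beside SREBP at such promoters.
Hmgcs1 (chr13:119690101-119690350, plus strand): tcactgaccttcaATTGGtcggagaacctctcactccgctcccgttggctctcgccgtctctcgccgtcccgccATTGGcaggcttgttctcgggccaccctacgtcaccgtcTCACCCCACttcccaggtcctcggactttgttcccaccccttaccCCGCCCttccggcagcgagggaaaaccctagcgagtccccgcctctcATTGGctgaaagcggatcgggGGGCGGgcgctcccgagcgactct
Mvd (chr8:122443423-122443672, minus strand): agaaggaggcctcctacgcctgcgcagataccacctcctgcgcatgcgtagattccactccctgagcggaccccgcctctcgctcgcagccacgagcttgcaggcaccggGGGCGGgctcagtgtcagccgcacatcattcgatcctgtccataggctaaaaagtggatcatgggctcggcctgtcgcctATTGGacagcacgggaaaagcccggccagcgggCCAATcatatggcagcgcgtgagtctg
Msmo1 (chr8:64733579-64733828, minus strand): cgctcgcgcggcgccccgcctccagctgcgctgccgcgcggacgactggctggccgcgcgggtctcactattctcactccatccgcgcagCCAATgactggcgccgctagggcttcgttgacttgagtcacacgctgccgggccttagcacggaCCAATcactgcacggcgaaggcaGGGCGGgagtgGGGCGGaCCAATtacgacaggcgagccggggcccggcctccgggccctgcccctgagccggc
Pmvk (chr3:89454291-89454540, plus strand): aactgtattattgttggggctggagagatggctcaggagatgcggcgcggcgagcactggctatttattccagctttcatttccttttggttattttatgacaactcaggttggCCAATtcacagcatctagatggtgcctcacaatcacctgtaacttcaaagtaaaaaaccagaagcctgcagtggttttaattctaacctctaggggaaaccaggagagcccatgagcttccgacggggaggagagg
Hmgcs1 held the sterol element match TCACCCCAC beside 3 NF-Y and 2 Sp1 matches. Mvd held 2 NF-Y and 1 Sp1 matches, Msmo1 3 NF-Y and 2 Sp1 matches, and this window of Pmvk 1 NF-Y match, while its other window held 0. Of the 14 enzymes, 11 had a RefSeq window (14 windows in all), and 28 of the 37 genes had one. CCAAT was present in 11 of the 14 windows of sterol enzymes (78.57%), against 33.85% of all 32851 promoter windows of this length, and GGGCGG in 11 of 14 (78.57%), against 32.74%. TCACNCCAC was found in 1 of the 14 windows (7.14%), against 1.05% of all windows, and CACGTG in 1 of 14 (7.14%), against 6.02%. A match is a description of these letters, not of a bound site.

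Values are log2 signals relative to the 75th percentile of each array, so that 0 is that percentile, and a difference of 1 is a 2-fold difference. Levels of different genes cannot be set against each other, since each rests on its own probe. On an array, 64.9% to 75.4% of the spots were well above background and 0 were saturated. The macrophage markers were above background on every array, for 10 of 10 genes, and their summed level was 7.93 to 8.53 over the tumor samples and 8.11 to 8.98 over the normal samples. Single markers did differ, with Adgre1 lower in tumor YFP+ and tumor YFP- cells (-0.97 and -1.05, limma adjusted p = 0.0245 and 0.0134), Lyz2 lower in tumor YFP+ cells (-0.97, adjusted p = 0.0212) and Cd14 higher in tumor YFP- cells (1.09, adjusted p = 0.0131). Markers of pancreatic acinar cells had a summed level of 1.53 to 3.50 over the tumor samples, against 8.00 to 9.57 over the normal samples. All 9 tested acinar markers were lower in tumor samples of both populations, with median log2 differences of -7.37 in YFP+ and -7.22 in YFP- cells. Among the normal mice, both arrays of mouse 23912 stood apart. Over all 24297 tested genes it was the highest of the 3 mice in both populations for 19.7% and the lowest for 16.7%, against 8.98% and 9.22% for mouse 23916 and 9.36% and 11.9% for mouse 23917. Of the 13 tested sterol enzymes, mouse 23912 was the highest in both populations for 8 (Hmgcs1, Pmvk, Mvd, Idi1, Fdps, Fdft1, Sqle and Msmo1), and of the 23 other genes of the set it was the lowest in both for 11. Between tumor and normal samples, each call gained or lost without this mouse is given with its value, among the genes that were followed through the alternatives and not over the whole set. Leaving out the highest or lowest normal mouse moves a tumor minus normal difference by construction. Calls gained in that way are thus not separate support.

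The comparison of tumor with normal pancreas asks how these genes differ between macrophages of the diseased and the healthy organ. In tumor YFP+ macrophages 5 genes were higher (Pmvk, Apoc2, Fabp5, Scd2 and Gpnmb) and 3 lower (Cd36, Lpl and Cpt1a) than in normal YFP+ macrophages. In tumor YFP- macrophages 11 were higher (Hmgcs1, Pmvk, Mvd, Fdps, Msmo1, Apoc2, Plin2, Fabp5, Acly, Scd2 and Gpnmb) and 2 lower (Cd36 and Lpl) than in normal YFP- macrophages. The 8 of 36 in YFP+ cells are 22.2%, where 12.3% of all genes tested passed (5.74% higher and 6.53% lower in tumor). The 13 of 36 in YFP- cells are 36.1%, where 16.1% passed (7.63% higher and 8.46% lower). All calls are from limma, with p-values adjusted over every gene and a threshold of 0.05. Tumor and normal samples did not overlap for 6 genes higher (16.7%, against 9.5% of all genes) and 3 lower (8.3%, against 12.7%) in YFP+ cells. In YFP- cells they did not overlap for 12 genes higher (33.3%, against 9.16%) and 2 lower (5.6%, against 10.6%). The median difference was 0.20 over the set in YFP+ cells, against -0.07 over all genes, and 0.50 in YFP- cells, against -0.19. The same 7 genes passed in both populations, and these come from the same mice. In all 4 groups, fewer cells of a type and less RNA per cell cannot be told apart in such sorted bulk samples, and the part of the acinar RNA in the normal samples in these differences was not tested.

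**Figure D1:**
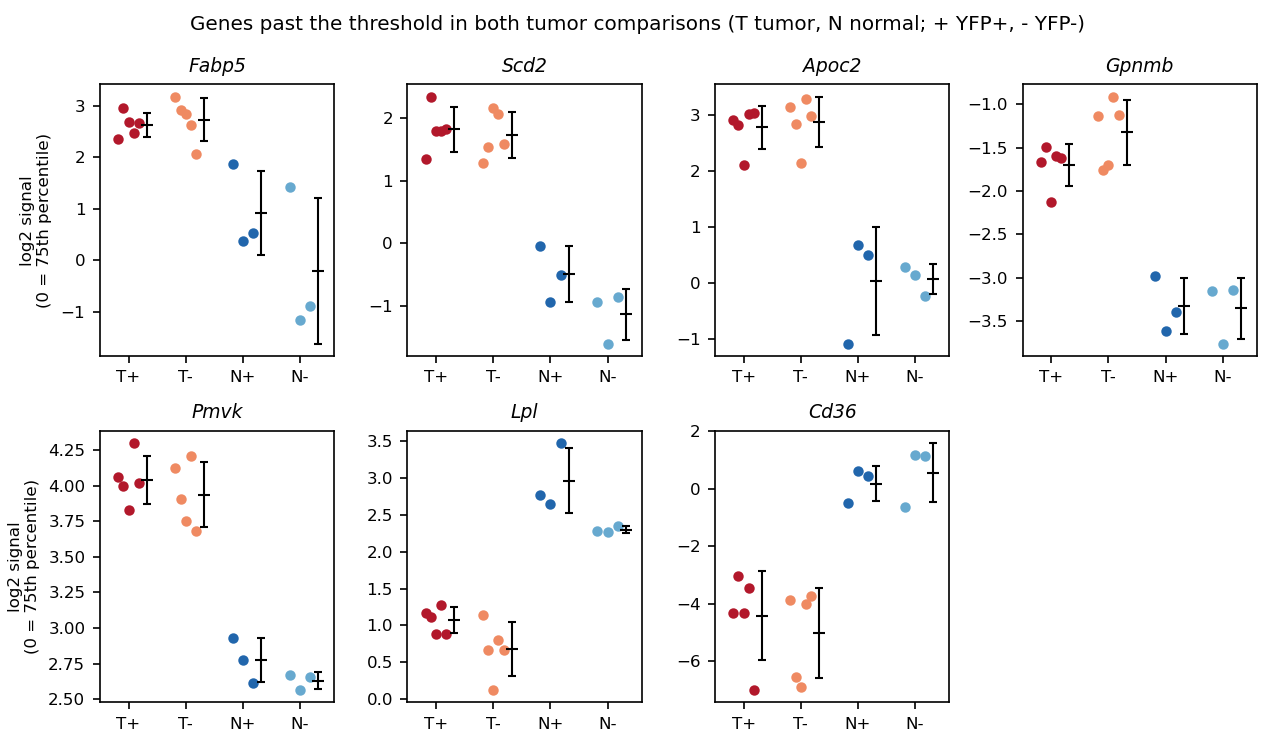
Log2 signal (0 is the 75th percentile of the array) of the 7 genes past the threshold in both tumor comparisons, with 1 point per array, for tumor YFP+ (T+), tumor YFP- (T-), normal YFP+ (N+) and normal YFP- (N-) samples, and bars for the mean and SD. Each vertical axis has its own range, and tumor points do not overlap with normal points of the same population for any of the 7 genes.

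In the early, mevalonate stretch of sterol synthesis, Pmvk was the gene that differed in both populations. It encodes phosphomevalonate kinase. Pmvk had log2 signals of 4.30, 4.06, 4.02, 4.00 and 3.83 in tumor YFP+ samples, against 2.93, 2.78 and 2.62 in normal YFP+ samples. In YFP- samples it was 4.21, 4.13, 3.90, 3.75 and 3.68 in tumor, against 2.67, 2.66 and 2.56 in normal pancreas. Every tumor sample thus lay above every normal sample. Pmvk was 2.41-fold higher in tumor YFP+ cells (log2 difference 1.27 ± 0.16, SE, limma adjusted p = 1.22e-04) and 2.47-fold higher in tumor YFP- cells (1.30 ± 0.16, adjusted p = 7.47e-05). A further probe for Pmvk differed alike, by 1.41 in YFP+ and 1.25 in YFP- cells.

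Mvd encodes the decarboxylase that follows in the pathway and makes isopentenyl diphosphate. Mvd had log2 signals of 0.92, 0.87, 0.57, 0.53 and 0.45 in tumor YFP- samples, against -0.51, -1.24 and -1.77 in normal YFP- samples. In YFP+ samples it was 0.90, 0.68, 0.64, 0.57 and 0.40 in tumor, against 0.47, -0.51 and -0.80 in normal pancreas. The YFP- groups did not overlap, whereas the highest normal YFP+ sample, from mouse 23912, lay within the tumor range. Mvd was 3.58-fold higher in tumor YFP- cells (1.84 ± 0.29, SE, limma adjusted p = 6.32e-04). In YFP+ cells the difference of 0.92 did not pass (adjusted p = 0.0562), and without mouse 23912 it was 1.30 (adjusted p = 0.00170). Without single mice it ran from 0.66 to 1.30, and it passed in 4 of 19 alternatives.

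Hmgcs1 encodes the synthase that makes HMG-CoA, at the entry of the pathway. Hmgcs1 had log2 signals of 1.94, 1.91, 1.78, 1.75 and 1.63 in tumor YFP- samples, against 0.96, 0.60 and 0.60 in normal YFP- samples, with no overlap. The difference was 1.08 ± 0.21 (SE, limma adjusted p = 0.00237), or 2.12-fold. In YFP+ cells the difference of 0.41 did not pass (adjusted p = 0.248), and without mouse 23912 it was 0.68 (adjusted p = 0.0287). Without single mice it ran from 0.20 to 0.68, and it passed in 1 of 19 alternatives. The result rests on the brighter of 2 probes. The second probe, at chr13_random:114558-114617 of mm9 against chr13_random:114793-114852 for the first, differed the other way, by -0.46 in YFP- and -0.53 in YFP+ cells. With both probes averaged, the difference in YFP- cells was 0.31 (adjusted p = 0.470).

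Fdps encodes farnesyl diphosphate synthase, which makes the precursor shared by sterols and prenylated proteins. Fdps had log2 signals of 0.91, 0.67, 0.57, 0.39 and 0.03 in tumor YFP- samples, against -0.20, -0.63 and -0.76 in normal YFP- samples, and the groups did not overlap. It was 2.06-fold higher in tumor YFP- cells (1.04 ± 0.32, SE, limma adjusted p = 0.0391). The call held in 12 of 19 alternatives and was lost with slide as a block (0.98, adjusted p = 0.0690). In YFP+ cells the difference of 0.87 did not pass (adjusted p = 0.0988), and without mouse 23912 it was 1.25 (adjusted p = 0.0208). Without single mice it ran from 0.44 to 1.25, and it passed in 2 of 19 alternatives. The file headers place the only Fdps probe at chr10:93242421-93242480 of mm9, whereas RefSeq has the gene on chromosome 3, so the identity of the RNA it measured is uncertain. Msmo1 encodes the methylsterol monooxygenase of the late, sterol stretch. Msmo1 had log2 signals of 1.43, 1.36, 1.29, 1.23 and 1.12 in tumor YFP- samples, against 0.75, 0.49 and 0.26 in normal YFP- samples. These groups did not overlap either, and Msmo1 was 1.73-fold higher in tumor (0.79 ± 0.21, SE, limma adjusted p = 0.0171), a call lost without mouse 23916 (0.78, adjusted p = 0.0755) or 23917 (0.67, adjusted p = 0.103).

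The other sterol enzymes did not pass in either population. In YFP- cells their differences were 0.71 for the squalene epoxidase gene Sqle (adjusted p = 0.119), 0.59 for Dhcr7, which encodes the reductase of the last step (adjusted p = 0.0833), and 0.56 for the isomerase gene Idi1 (adjusted p = 0.259). Those of Lss, Nsdhl, Ebp and the mevalonate kinase gene Mvk were 0.51, 0.33, 0.20 and -0.02 (limma adjusted p = 0.6175, 0.563, 0.459 and 0.934). In YFP+ cells the differences were 0.55 for Idi1, 0.20 for Mvk, 0.19 for Sqle, 0.13 for Lss, 0.10 for Ebp, -0.03 for Dhcr7 and -0.20 for Nsdhl (adjusted p at least 0.3449). The squalene synthase gene Fdft1, at 0.49 in YFP- cells, is uncertain, because its brighter probe lies at chr14:19364899-19364958 of mm9 and its other probe at chr14:63764562-63764621 differed by -0.58. In YFP+ cells the brighter probe gave 0.29 (limma adjusted p = 0.573) and the other -0.915. Without mouse 23912 the brighter probe gave 0.77 in YFP- cells (adjusted p = 0.01825). Without single mice it ran from 0.31 to 0.77. Over the 13 tested sterol enzymes the median difference was 0.59 in YFP- cells, with 5 of 13 past the threshold and 12 of 13 above 0, against a median of -0.19 over all genes. In YFP+ cells it was 0.20, with 1 of 13 past the threshold, against -0.07 over all genes. These medians and counts take the brightest probe of each gene. In YFP- cells a second, dimmer probe had the opposite sign for Hmgcs1 (-0.46), Fdft1 (-0.58) and Nsdhl (-1.19). It had the same sign for Pmvk (1.25) and Mvk (-0.01). In YFP+ cells the second probe had the opposite sign for Hmgcs1 (-0.53) and Fdft1 (-0.915), and the same sign for Pmvk, Mvk and Nsdhl. What the Fdps probe measured is uncertain, as stated above. Without single mice the medians of the 13 enzymes were 0.48 to 0.83 in YFP- and 0.13 to 0.37 in YFP+ cells, the highest being those without mouse 23912. The interaction, which tests whether the tumor difference itself differs between YFP+ and YFP- cells, passed for 0 of 36 genes of the set, where 0.103% of all genes passed. At an unadjusted p under 0.05 there were 4 of the set, against 5.96% of all genes. These were Abcg1, with an interaction of -1.25 (limma adjusted p = 0.670), and Hmgcs1, Mvd and Msmo1, with -0.67, -0.92 and -0.65 (adjusted p = 0.800, 0.828 and 0.821).

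**Figure D2:**
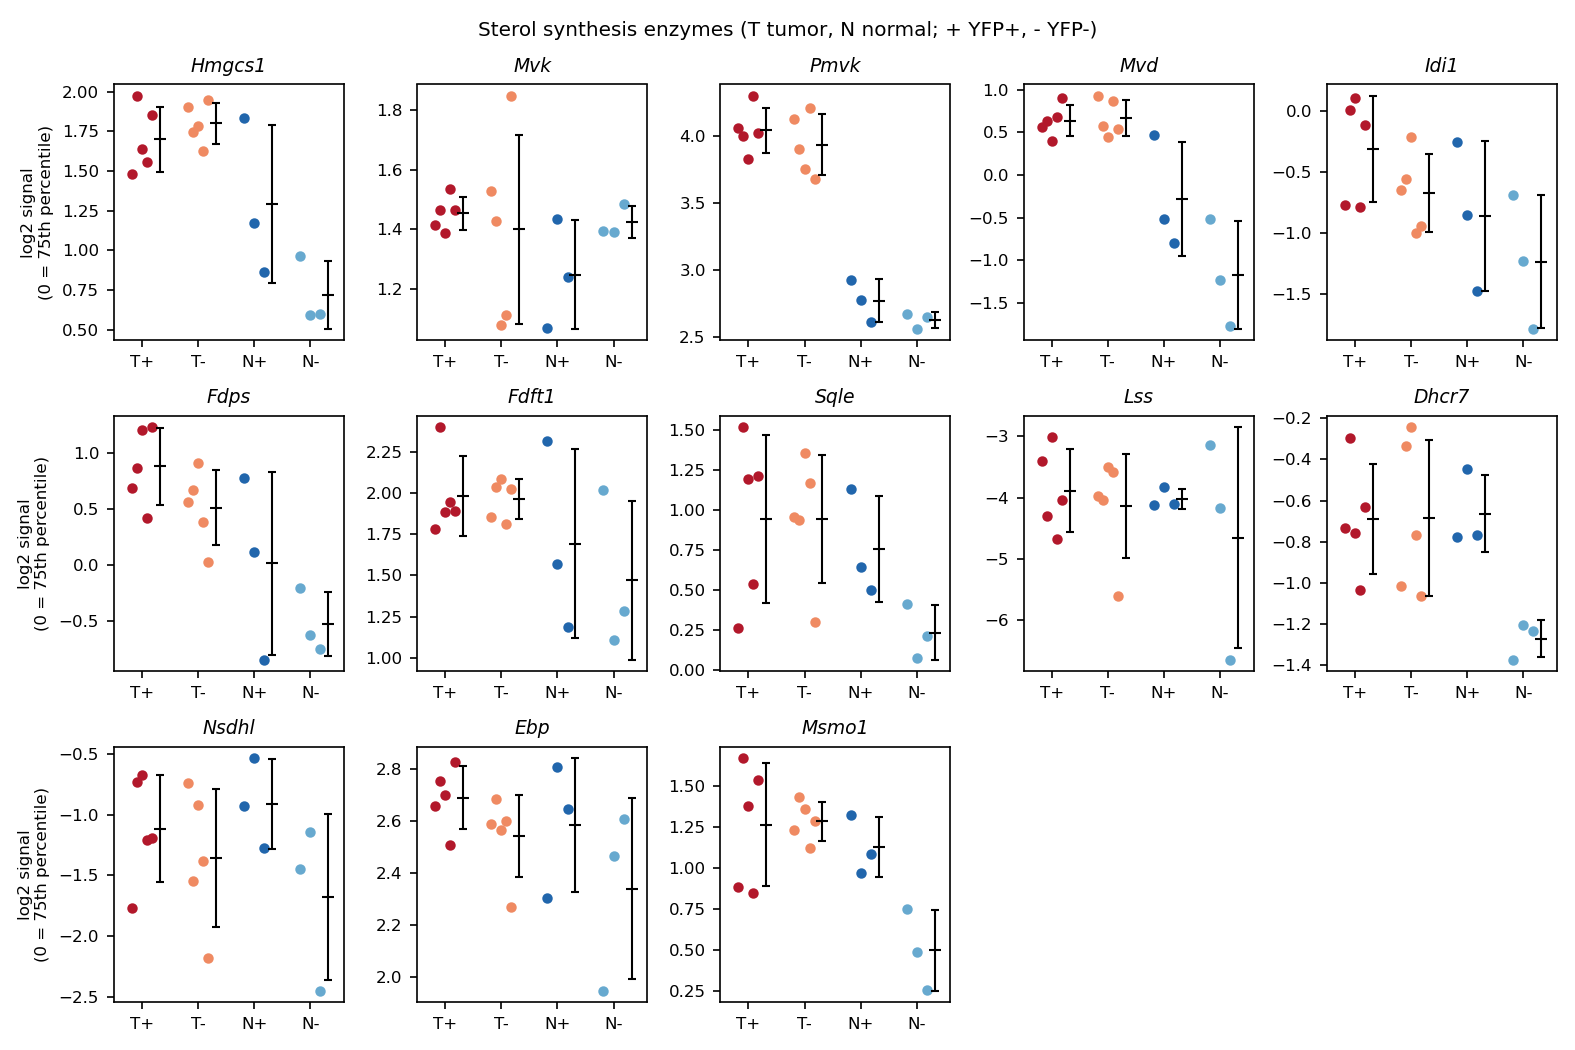
Log2 signal (0 is the 75th percentile of the array) of the 13 tested sterol synthesis enzymes in tumor YFP+ (T+), tumor YFP- (T-), normal YFP+ (N+) and normal YFP- (N-) samples, with 1 point per array and bars for the mean and SD, each gene on its own vertical range. Tumor and normal groups separate in both populations for Pmvk, and in YFP- samples for Hmgcs1, Mvd, Fdps, Dhcr7 and Msmo1.

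The regulators of sterol balance did not differ past the threshold in either population. Srebf2 averaged 2.45 ± 0.22 in tumor YFP+ and 2.62 ± 0.20 in normal YFP+ samples, and 2.14 ± 0.22 in tumor YFP- and 2.20 ± 0.20 in normal YFP- samples (SD, n = 5 tumor and 3 normal). Insig1 averaged 1.51 ± 0.23 in tumor YFP+ and 1.04 ± 0.33 in normal YFP+ samples, a difference of 0.47 (limma adjusted p = 0.170). Nr1h3 averaged 0.84 ± 0.15 in tumor YFP+ and 0.92 ± 0.17 in normal YFP+ samples, and 0.78 ± 0.38 in tumor YFP- and 1.07 ± 0.26 in normal YFP- samples. Its probes disagreed in sign in both populations, by -0.08 and 0.36 in YFP+ and -0.29 and 0.74 in YFP- cells. Those of Srebf2 disagreed in YFP- cells (-0.06 and 0.24) and not in YFP+ cells (-0.17 and -0.04). Srebf1, which encodes the SREBP of fatty acid synthesis, differed by -0.39 in YFP+ and 0.07 in YFP- cells (adjusted p = 0.481 and 0.882).

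Of the efflux and lipoprotein genes, 1 of 5 passed. Apoc2 encodes apolipoprotein C-II, the cofactor of lipoprotein lipase. Apoc2 had log2 signals of 3.03, 3.02, 2.91, 2.82 and 2.11 in tumor YFP+ samples, against 0.68, 0.50 and -1.07 in normal YFP+ samples. In YFP- samples it was 3.29, 3.14, 2.99, 2.84 and 2.14 in tumor, against 0.29, 0.14 and -0.22 in normal pancreas. The groups lay more than 1 log2 unit apart in both populations. Apoc2 was 6.68-fold higher in tumor YFP+ cells (2.74 ± 0.37, SE, limma adjusted p = 2.08e-04) and 7.01-fold higher in tumor YFP- cells (2.81 ± 0.37, adjusted p = 1.34e-04).

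Apoe, the main apolipoprotein made by macrophages, showed no such difference. It averaged 6.19 ± 0.15 in tumor YFP+ and 6.16 ± 0.09 in normal YFP+ samples, and 6.36 ± 0.25 in tumor YFP- and 6.45 ± 0.31 in normal YFP- samples (SD). The 95% interval of its tumor difference ran from -0.36 to 0.42 in YFP+ cells. The cholesterol exporter genes Abca1 and Abcg1 differed by 0.61 and -0.46 in YFP+ cells and by 0.36 and 0.80 in YFP- cells, none past the threshold. Abcg1 in YFP- cells was 1.21 higher without mouse 23912 (limma adjusted p = 0.0233). Without single mice its difference ran from 0.40 to 1.21, and it passed in 2 of 19 alternatives. Pltp, the phospholipid transfer protein gene, differed by 0.02 in YFP+ and 0.21 in YFP- cells.

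Both genes of lipid uptake that fell are known from adipose tissue, endothelium and macrophages. Cd36 encodes a scavenger receptor for fatty acids and oxidised lipoproteins. Cd36 had log2 signals of -3.05, -3.44, -4.32, -4.33 and -7.01 in tumor YFP+ samples, against 0.60, 0.43 and -0.52 in normal YFP+ samples. In YFP- samples it was -3.73, -3.89, -4.01, -6.55 and -6.89 in tumor, against 1.16, 1.12 and -0.64 in normal pancreas. Cd36 was well above background on 4 of 5 tumor YFP+ and 3 of 5 tumor YFP- arrays and on all normal arrays, and tumor and normal values lay far apart. The log2 difference was -4.60 ± 0.92 in YFP+ cells (SE, limma adjusted p = 0.00354) and -5.56 ± 0.92 in YFP- cells (adjusted p = 7.95e-04). Its size depends on the floor of the arrays, and over the alternatives it was as small as -3.08 in YFP+ and -3.30 in YFP- cells.

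Lpl encodes lipoprotein lipase, which frees fatty acids from lipoproteins. Lpl had log2 signals of 1.28, 1.17, 1.12, 0.89 and 0.88 in tumor YFP+ samples, against 3.47, 2.77 and 2.65 in normal YFP+ samples. In YFP- samples it was 1.14, 0.80, 0.67, 0.66 and 0.13 in tumor, against 2.35, 2.27 and 2.27 in normal pancreas. All tumor samples lay below all normal samples. Lpl was 3.72-fold lower in tumor YFP+ cells (-1.89 ± 0.23, SE, limma adjusted p = 7.31e-05) and 3.07-fold lower in tumor YFP- cells (-1.62 ± 0.23, adjusted p = 2.14e-04), and a dimmer probe gave -3.41 and -2.10. Lipa, the lysosomal acid lipase gene, differed by -0.60 and -0.58 and passed in neither (adjusted p = 0.109 and 0.0980), though in YFP- cells it passed in 6 of 19 alternatives, among them that without mouse 23912 (-0.83, adjusted p = 0.0248).

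Adipocyte and endothelial markers are given beside Cd36 and Lpl. Of 10 adipocyte markers tested, 0 passed between tumor and normal YFP+ samples and 1 (Aqp7, an adipocyte glycerol channel, -2.79, limma adjusted p = 0.0404) between the YFP- samples. Their summed level was 2.33 to 4.34 over the tumor samples, against 2.67 to 3.76 over the normal samples, and 7 of 10 in YFP+ and 6 of 10 in YFP- cells had a difference below 0 (medians -0.41 and -0.26). Endothelial markers had 1 of 10 past the threshold and higher in tumor in each population, and 0 lower. Their difference was below 0 for 5 of 10 in YFP+ and 7 of 10 in YFP- cells (medians 0.00 and -0.22). All 9 tested acinar markers, Prss2 among them, were lower in tumor, like Cd36 and Lpl. The part of these cell types in both results was not tested.

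Of the storage and binding genes, Fabp5 differed in both populations. It encodes a fatty acid binding protein of epidermis and macrophages. Fabp5 had log2 signals of 3.18, 2.91, 2.85, 2.63 and 2.07 in tumor YFP- samples, against 1.42, -0.88 and -1.16 in normal YFP- samples. In YFP+ samples it was 2.95, 2.69, 2.66, 2.47 and 2.36 in tumor, against 1.87, 0.54 and 0.38 in normal pancreas. The groups did not overlap, and the highest normal sample in each population was that of mouse 23912. Fabp5 was 7.65-fold higher in tumor YFP- cells (2.93 ± 0.49, SE, limma adjusted p = 9.44e-04) and 3.24-fold higher in tumor YFP+ cells (1.70 ± 0.49, adjusted p = 0.0363). The call in YFP+ cells held in 9 of 19 alternatives, and it was lost with slide as a block (1.83, adjusted p = 0.0524) and without any of 7 of the 8 mice, mouse 23912 being the exception (2.17 without it, adjusted p = 2.32e-04). The file headers place its only probe at chr9:57332244-57332303 of mm9, whereas RefSeq has the gene on chromosome 3, so the identity of the RNA it measured is uncertain.

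Plin2, which encodes the coat protein of lipid droplets, was 2.05-fold higher in tumor YFP- cells (1.04 ± 0.33, SE, limma adjusted p = 0.0473). Plin2 had log2 signals of 2.57, 2.57, 2.12, 1.65 and 1.49 in tumor YFP- samples, against 1.43, 1.40 and 0.29 in normal YFP- samples. The groups met without overlapping, and the lowest value was that of mouse 23912. The call held in 6 of 19 alternatives, and without mouse 23912 the difference was 0.66 (adjusted p = 0.190). Soat1, the sterol acyltransferase that esterifies cholesterol, differed by 0.56 and 0.66 (adjusted p = 0.196 and 0.0981), and Fabp4, the fatty acid binding protein of adipocytes and macrophages, by -0.15 and 0.49 (adjusted p = 0.904 and 0.484), in YFP+ and YFP- cells.

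In fatty acid synthesis, Scd2 had the lowest adjusted p of the set in YFP- cells. It encodes a stearoyl-CoA desaturase, which makes monounsaturated fatty acids. Scd2 had log2 signals of 2.33, 1.81, 1.79, 1.78 and 1.34 in tumor YFP+ samples, against -0.03, -0.51 and -0.93 in normal YFP+ samples. In YFP- samples it was 2.16, 2.06, 1.58, 1.54 and 1.28 in tumor, against -0.86, -0.93 and -1.59 in normal pancreas. The groups were separated by more than 1 log2 unit. Scd2 was 4.93-fold higher in tumor YFP+ cells (2.30 ± 0.28, SE, limma adjusted p = 8.16e-05) and 7.22-fold higher in tumor YFP- cells (2.85 ± 0.28, adjusted p = 8.96e-06).

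Acly encodes ATP citrate lyase, which supplies acetyl-CoA to both fatty acid and sterol synthesis. Acly had log2 signals of 4.02, 3.76, 3.74, 3.42 and 3.26 in tumor YFP- samples, against 2.56, 2.49 and 2.29 in normal YFP- samples, with no overlap. It was 2.28-fold higher in tumor YFP- cells (1.19 ± 0.22, SE, limma adjusted p = 0.00174), and in YFP+ cells the difference of 0.68 did not pass (adjusted p = 0.0547). Fasn, the fatty acid synthase gene, differed by 1.04 in YFP+ and -0.18 in YFP- cells and passed in neither (adjusted p = 0.161 and 0.804). Cpt1a encodes the carnitine palmitoyltransferase that admits fatty acids to mitochondrial oxidation. Cpt1a had log2 signals of 1.68, 1.42, 1.34, 1.17 and 0.63 in tumor YFP+ samples, against 2.65, 2.13 and 1.94 in normal YFP+ samples. It was 1.99-fold lower in tumor YFP+ cells (-0.99 ± 0.30, SE, limma adjusted p = 0.0437), a call that held in 11 of 19 alternatives and was lost without mouse 23917 (-0.78, adjusted p = 0.210) or 23912 (-1.14, adjusted p = 0.0567), while the difference in YFP- cells was -0.28 (adjusted p = 0.547).

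Of the genes known from lipid-associated macrophages, Gpnmb passed in both populations. It encodes a membrane glycoprotein of lipid-laden and lysosome-rich macrophages. Gpnmb had log2 signals of -1.49, -1.60, -1.62, -1.67 and -2.12 in tumor YFP+ samples, against -2.98, -3.39 and -3.61 in normal YFP+ samples. In YFP- samples it was -0.91, -1.12, -1.13, -1.70 and -1.76 in tumor, against -3.14, -3.16 and -3.76 in normal pancreas. Tumor samples lay above normal samples throughout. Gpnmb was 3.09-fold higher in tumor YFP+ cells (1.63 ± 0.24, SE, limma adjusted p = 4.48e-04) and 4.09-fold higher in tumor YFP- cells (2.03 ± 0.24, adjusted p = 5.60e-05). Trem2, the lipid-sensing receptor gene of these cells, differed by 0.63 and 0.59 and passed in neither (adjusted p = 0.235 and 0.215), and Lgals1, which encodes galectin-1, by -0.07 and 0.08 (adjusted p = 0.866 and 0.758).

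**Figure D3:**
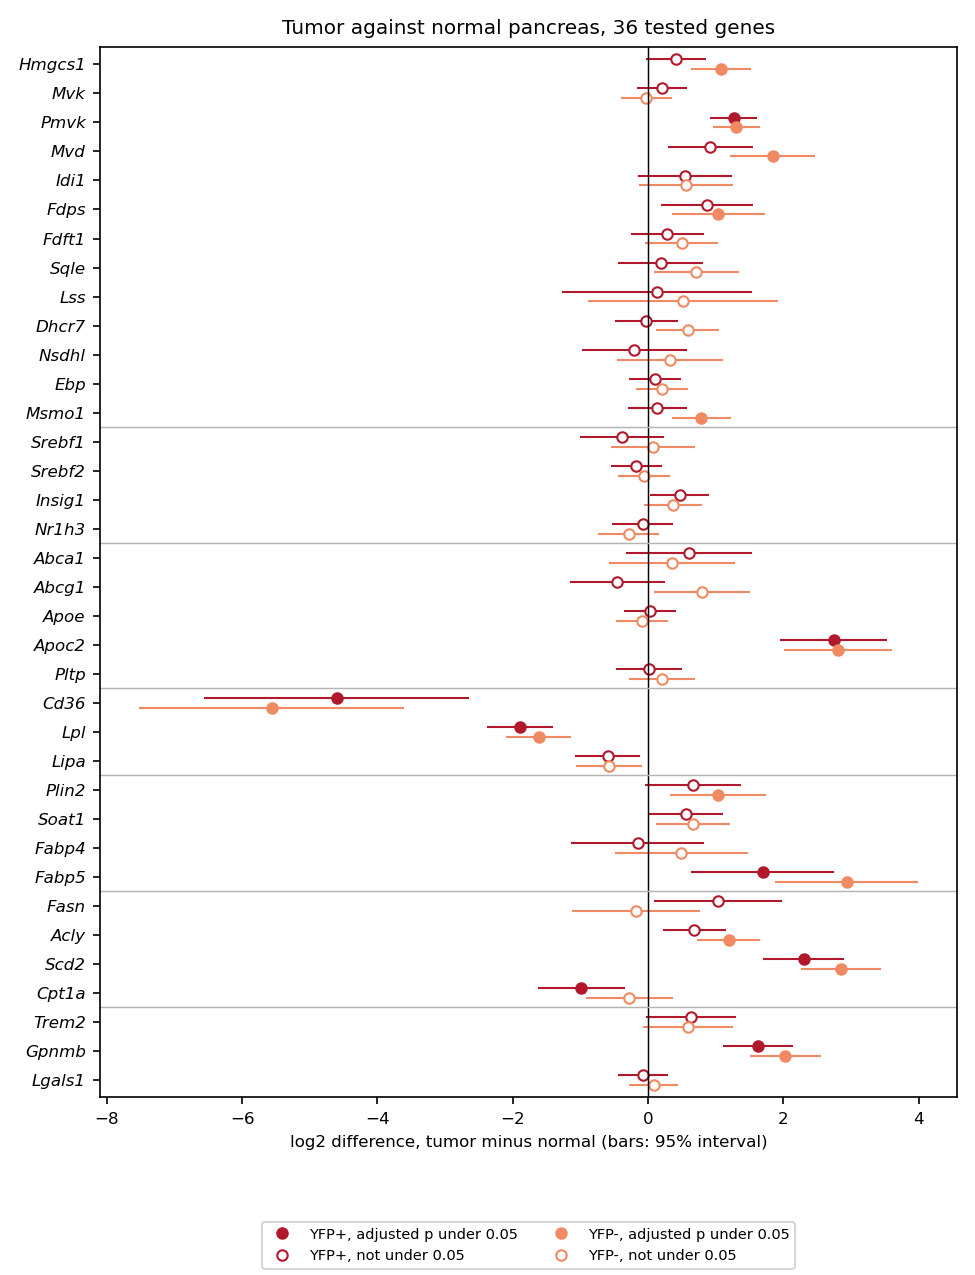
Log2 difference, tumor minus normal, of the 36 tested genes in YFP+ cells (upper point of each pair) and YFP- cells (lower point), with 95% intervals and filled points for an adjusted p under 0.05. Gray lines divide the roles from sterol enzymes at the top to genes of lipid-associated macrophages at the bottom, with 8 filled points in YFP+ and 13 in YFP- cells, and Cd36 farthest to the left in both.

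Further genes of the same pathways were read from the same fit, in which 12.3% of all genes passed in YFP+ and 16.1% in YFP- cells. Of 19 other sterol genes, 0 passed in YFP+ cells (median -0.01). In YFP- cells (median 0.13) 0 were lower in tumor, against 8.46% of all genes, and 2 (10.5%) were higher, against 7.63%. Among these 2 was Sc5d, a sterol desaturase gene (0.88 ± 0.23, SE, limma adjusted p = 0.0150). Of 32 other fatty acid and lipid droplet genes, 5 were higher and 2 lower in tumor YFP+ cells (21.9%), and 7 higher and 2 lower in tumor YFP- cells (28.1%). Olr1, an oxidised lipoprotein receptor gene, was at least 5.77-fold higher in tumor YFP+ and at least 7.81-fold higher in tumor YFP- cells (limma adjusted p = 2.09e-04 and 1.78e-05). These bounds take the normal samples, which were not well above background, at the lowest signal that was. Both genes of the last step of triglyceride synthesis were higher, Dgat1 by 2.02 and 2.30 and Dgat2 by 2.33 and 2.61 in YFP+ and YFP- cells (adjusted p at most 0.00141), while the acyltransferase gene Agpat2 was lower by 1.07 and 1.19 (adjusted p = 7.77e-04 and 3.03e-04). Also lower were Plin3 in tumor YFP+ cells (-0.90, limma adjusted p = 0.00595) and Gpam in tumor YFP- cells (-2.25, adjusted p = 0.0125). Gpam was well above background on 2 of 5 tumor YFP- arrays. Of 11 other genes of lipid-associated macrophages, 5 (45.5%) were higher in tumor YFP+ and 8 (72.7%) in tumor YFP- cells, and 0 were lower. They included Spp1, the osteopontin gene (3.54 and 5.59, limma adjusted p = 0.00436 and 1.14e-04), and Apoc1, an apolipoprotein gene (2.80 and 2.09, adjusted p = 6.51e-04 and 0.00478).

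The comparison of YFP+ with YFP- macrophages asks whether cells with and without a mark of Flt3 expression in their past differ in these genes within the same tissue. In tumors 0 of 36 genes passed, where 2.4% of all genes did (limma), and 1 of 36 had an unadjusted p under 0.05, against 10.3% of all genes. That gene was Fabp4, whose log2 signal was 0.61, 0.58, 0.29, -0.29 and -1.11 in tumor YFP+ samples, against 2.10, 1.45, 1.40, 0.94 and 0.60 in tumor YFP- samples. The groups overlapped by 1 sample, and the difference was -1.28 ± 0.40 (SE, limma adjusted p = 0.151). For 32 of 36 genes the 95% interval of the difference lay within 1 log2 unit of 0, so that for these genes a 2-fold difference was outside the interval. The median difference was 0.05 over the sterol enzymes and -0.08 over the other genes of the set, against 0.00 over all genes. Of the other pathway genes 1 passed, Mgll, the monoglyceride lipase gene, at -1.27 ± 0.28 (SE, adjusted p = 0.0254).

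Markers of other cells did differ between the tumor populations. All 10 fibroblast markers were lower in tumor YFP+ samples, with a summed level of 1.33 to 2.87 against 5.90 to 6.61 in tumor YFP- samples, and 5 of 7 mast cell markers were lower, with a summed level of 1.15 to 2.56 against 3.25 to 5.77. Of 9 ductal and epithelial markers 5 were lower, with a summed level of 2.17 to 2.76 against 4.04 to 4.91, and of 9 acinar markers 3 were lower. Of 8 B and plasma cell markers 2 were higher, with a summed level of 5.02 to 5.81 against 2.92 to 4.31. The part of such cells in the values of Fabp4 and Mgll was not tested. Between tumor and normal YFP- samples, 5 of 10 fibroblast and 7 of 7 mast cell markers were higher in tumor, 6 of 9 ductal and epithelial markers were higher and 1 lower, and 3 of 8 B and plasma cell markers were higher and 1 lower. Between tumor and normal YFP+ samples, 1 of 10 fibroblast markers was higher and 1 lower, 1 of 7 mast cell markers was higher, 3 of 9 ductal and epithelial markers were higher and 1 lower, and 4 of 8 B and plasma cell markers were higher. Their part in the tumor differences of the set was not tested either.

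In normal pancreas 0 of 36 genes passed between YFP+ and YFP- macrophages, where 0.0206% of all genes did (limma), and 7 of 36 had an unadjusted p under 0.05, against 7.64% of all genes. These were Hmgcs1, Mvd, Dhcr7, Msmo1, Abcg1 and Lpl, with differences above 0, and Fasn, with one below. Fasn was not well above background in the normal YFP+ sample of mouse 23917. Msmo1 had the lowest adjusted p of the set, 0.450 (0.63 ± 0.23, SE, limma), with a log2 signal of 1.32, 1.09 and 0.97 in normal YFP+ samples, against 0.75, 0.49 and 0.26 in normal YFP- samples. The sterol enzymes had a median difference of 0.54, and 12 of 13 lay above 0, against a median of -0.11 over all genes. In 6 of 36 genes (16.7%) every normal YFP+ sample lay above every normal YFP- sample, as 6.14% of all genes did, and these were Sqle, Dhcr7, Msmo1, Srebf2, Lpl and Cpt1a. The intervals were wide, and 16 of 36 lay within 1 log2 unit of 0. Within the 2 slides that held both normal populations, the median over the sterol enzymes was 1.07 in one and -0.10 in the other. The first set the YFP+ sample of mouse 23912 against the YFP- sample of mouse 23917, and the other held the reverse pairing. Mouse and population thus cannot be told apart within these slides. By mouse number, the mean level of the sterol enzymes in YFP+ and YFP- samples was 0.62 and 0.21 (23912), 0.41 and -0.07 (23916), and 0.07 and -0.43 (23917).

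**Figure D4:**
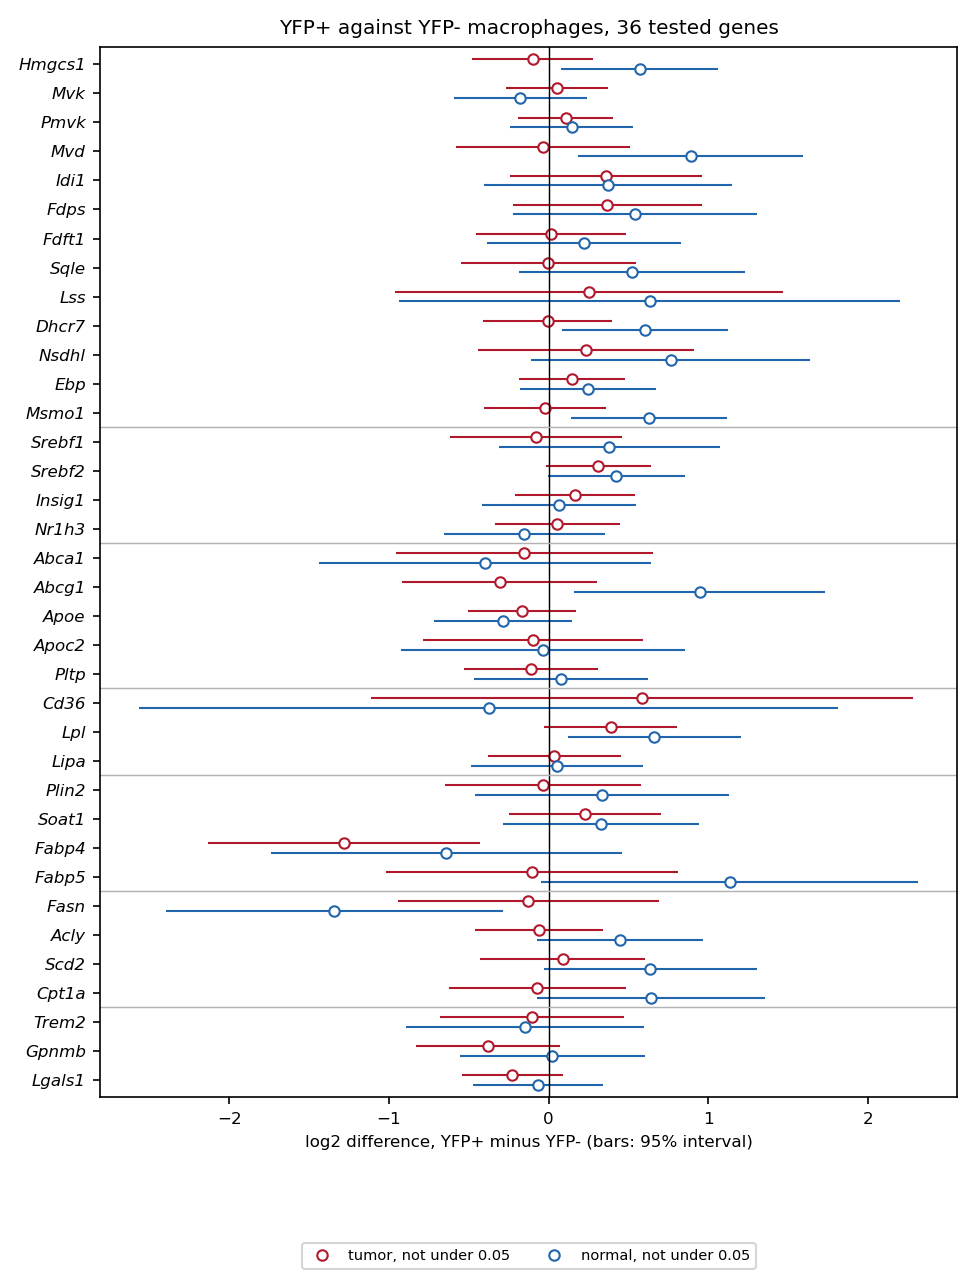
Log2 difference, YFP+ minus YFP-, of the 36 tested genes in tumor (upper point of each pair) and in normal pancreas (lower point), with 95% intervals and open points throughout, since 0 of 36 passed in either tissue. The 13 sterol enzymes at the top, each by its brightest probe, lie close to 0 in tumor, and 12 of 13 lie above 0 in normal pancreas.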

How the data were processed

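The 16 one-colour Agilent mouse arrays (Cy5, red channel), 4 on each of 4 slides, hold the red intensity of 44397 spots, which per the file headers was background subtracted and detrended in the deposited processed signal. Agilent Feature Extraction 11.5.1.1 is named in the submitters' processing notes, and probe positions are on mm9 per the file headers. The authors also deposited normalized log2 values, used as an alternative. Each deposited column has a median of 9.025, its centring and scaling are unstated, and it correlates with its own array at r of at least 0.9957 across probes.

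Log2 processed intensity was scaled to the 75th percentile of each array. Probes well above background on at least 3 of 16 arrays were kept (30567), the 255 with a missing value were left out, and the brightest probe stood for a gene, which gave 24297 genes. limma 3.58.1 in R 4.3.3 was fitted to 4 group means on the 16 arrays together (two-sided tests), and p-values were adjusted by Benjamini-Hochberg over every gene tested and called under 0.05. Normexp (offset 50), other normalizations, filters, probe means, blocks, array weights and leaving out each mouse were tried. On simulated data for 24297 genes, 25 of 100 changes of 1 log2 unit and 70 of 100 of 2 were recovered for tumor minus normal in YFP+ cells, and 26 and 62 of 100 in YFP- cells. No other genes were changed there, and 97 and 90 genes passed, against 2981 and 3909 in the real data. The adjustment is stricter with so few changes, so these shares do not give the power of the real fit.

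The genes, roles and lists were chosen with earlier results of these data known. All genes of the set are described, and of the other lists the 3 largest increases and decreases past the threshold could be named. The result of 1 gene among the other sterol genes is not reported here. p-values measure the spread between these samples. The number of arrays limits the precision. Promoters came from RefSeq (GRCm38.p6), and those printed belong to the sterol enzymes with the lowest adjusted p that had one. Deviations of same-numbered samples from their group means correlated at r 0.274 for mouse 23912 and from -0.290 to 0.315 over all mice (limma consensus correlation 0.0291). Little deviation was thus shared within a number. With so few arrays a group, this cannot decide whether same-numbered samples came from the same mouse. The mouse block is an alternative only.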

Additional observations from a re-analysis of the deposited data

Results flagged for a closer look

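Within a group of 5 arrays, 1 sample stood far from the others for 6 gene and group combinations of 72 examined, and chance flags about 1 in 20 groups. Fdft1, the squalene synthase gene, was 2.40 in the tumor YFP+ sample of mouse 23548, with the others between 1.78 and 1.94. In the tumor YFP- sample of mouse 23677, the lanosterol synthase gene Lss was -5.61, with the others between -4.03 and -3.51, and the sterol isomerase gene Ebp was 2.27, with the others between 2.57 and 2.68. That Lss value was not well above background. Apoe was 5.92 in the tumor YFP- sample of mouse 23550, with the others between 6.37 and 6.51. In the tumor YFP+ sample of the same mouse, Apoc2 was 2.11, with the others between 2.82 and 3.03, and Gpnmb was -2.12, with the others between -1.67 and -1.49. Without mouse 23550 both genes stayed past the threshold between tumor and normal YFP+ cells.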

How the results depend on the processing

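Over 19 alternatives, Pmvk, Apoc2, Scd2, Gpnmb, Cd36 and Lpl passed between tumor and normal in both populations under each, and Mvd, Acly and Fabp5 did in YFP- cells. Calls were lost for Hmgcs1 (18 of 19 kept), Msmo1 (17), Fdps (12) and Plin2 (6) in YFP- cells and for Cpt1a (11) and Fabp5 (9) in YFP+ cells, and no sign of a called difference turned. With the mouse as replicate block, 0 genes passed between the normal populations (5 without it) and 16 in the interaction (25 without it), and it changed no call of the set. Between the normal populations 0 genes passed with normexp, 16 with quantile normalization, 15 with the deposited values, 10 with no filter, 2 with slide as a block, 0 with only the groups compared and 0 to 224 without single mice. With array weights 1155 genes passed there, 354 in the interaction, 4502 between tumor and normal YFP+ cells (2981 unweighted) and 9354 between the YFP- groups (3909 unweighted). Array weights also gave 2 genes of the set between the normal populations (Abcg1 and Fabp5), 1 in the interaction (Abcg1), and a median of 0.0458 over the genes other than sterol enzymes between the YFP- groups (0.36 unweighted). With only the groups compared 2305 genes passed between the YFP- groups, and with slide as a block 8 in the interaction. Without single mice, 354 to 659 genes passed between the tumor populations (582 with all), 1938 to 2648 and 2242 to 4642 between tumor and normal in YFP+ and YFP- cells, and 8 to 42 in the interaction. The medians between the YFP- groups were then 0.48 to 0.83 for sterol enzymes and 0.13 to 0.41 for the others, the ends farthest from the full data being those without mouse 23912, and the sterol median of the interaction was -0.67 to -0.21. The causes were not tested. Signal over background limits Cd36 and Cyp51, and also Lss and Fasn. Lss was well above background on 4 of 5 tumor YFP- and 2 of 3 normal YFP- arrays. Fasn was so on 4 of 5 tumor YFP- and 2 of 3 normal YFP+ arrays.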
